A study of Mus musculus with 2 samples.

Results

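Genes of red blood cells and of leukocytes were described in embryonic mouse lung. The members were 29 named genes: 11 erythroid and 18 leukocyte genes, of which 12 are best known from macrophages. A member was read by a probe set, the group of array probes that reports on 1 gene, whose platform annotation gave exactly 1 symbol, and 28 of the 29 were matched, out of 19938 genes named in this way. Ahsp was not matched. Each of the 28 had 1 probe set, so no choice between probe sets entered their values.

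The study compared lungs at E13.5, a stage of airway branching, from wild type mouse embryos and from embryos labelled as Etv4;5 knockout. Etv4 and Etv5 are ETS transcription factors of the distal lung epithelium. RNA of 3 samples was pooled in each group and read on 1 Affymetrix array, giving 2 arrays without replicates. The labels also abbreviate the knockout as CKO, and the Cre driver, the strain and the deleted parts of the genes were not given in the sources used here. No test between the groups was possible, and each difference compares these 2 pools only.

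Red cells of the early embryo arise in the yolk sac, enter the circulation while still maturing and carry embryonic globins, so their RNA reaches every organ with the blood. Definitive red cells later come from the fetal liver. Haemoglobin pairs alpha-like with beta-like chains around haem, and the anion exchanger Slc4a1 anchors the membrane skeleton of the cell. Macrophages also seed the lung before birth, from yolk sac and fetal liver precursors. They depend on the receptor Csf1r and take up dying cells and other particles.

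The deposited values were read as log2 expression. Over 35557 probe sets they had a median of 7.60 on the wild type array and 7.58 on the knockout array. Differences are those of the knockout from the wild type value, in log2 units, and pairs of values are given with wild type first. A gene was said to lie below the array median when both of its values were under the median of their own array. Brightness also depends on the probes, so the median serves as a mark of dim signal, and the order of genes by brightness is not an order of transcript abundance. In whole lung, fewer cells of a type and less RNA per cell cannot be told apart. Etv4 was at 7.59 and 6.96 and Etv5 at 11.51 and 11.28 in wild type and knockout. Xist, the RNA that silences an X chromosome in female cells, was at 12.34 and 5.74, so the pools also differed in a sex-linked gene. Its difference of -6.60 was the lowest of all genes. Defining genes of lung epithelium, mesenchyme and endothelium were bright, with 0 of 6 below the median in each list.

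The region just upstream of the start site is shown for members whose values are contrasted further on. Hbb-y (chr7:103853208-103853457, minus strand) and Hba-x (chr11:32276350-32276599, plus strand) are the brightest erythroid members and were both lower in knockout. Klf1 (chr8:84901732-84901981, plus strand) encodes a factor that binds globin promoters, and its value was equal on both arrays. C1qc (chr4:136892915-136893164, minus strand) and C1qb (chr4:136886201-136886450, minus strand) belong to the same complement complex, and C1qc was equal while C1qb was lower. Each sequence is the 250 bases before the start, 5′ to 3′ along the gene, from RefSeq on GRCm38.p6. Capitals mark TGATAA, a form of the site bound by GATA factors, CACCC, the core bound by Klf1, and TATAAA, the TATA box, on either strand, in the first 3 sequences.
Hbb-y: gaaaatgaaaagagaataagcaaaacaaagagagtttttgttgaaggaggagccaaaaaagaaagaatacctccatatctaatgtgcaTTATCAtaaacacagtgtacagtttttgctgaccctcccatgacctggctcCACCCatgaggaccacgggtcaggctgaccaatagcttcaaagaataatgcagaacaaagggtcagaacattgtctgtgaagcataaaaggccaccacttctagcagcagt
Hba-x: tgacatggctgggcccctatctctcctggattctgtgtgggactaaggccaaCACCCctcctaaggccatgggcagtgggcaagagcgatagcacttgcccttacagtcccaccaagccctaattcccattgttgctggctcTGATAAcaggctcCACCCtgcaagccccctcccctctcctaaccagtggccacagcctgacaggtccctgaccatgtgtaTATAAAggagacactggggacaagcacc
Klf1: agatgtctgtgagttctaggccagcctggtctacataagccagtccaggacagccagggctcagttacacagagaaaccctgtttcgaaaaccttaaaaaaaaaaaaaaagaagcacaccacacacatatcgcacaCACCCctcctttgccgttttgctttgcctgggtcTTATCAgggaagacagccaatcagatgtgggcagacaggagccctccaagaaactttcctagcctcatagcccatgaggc
In the C1q sequences capitals mark GGAAGT, a core shared by sites of ETS factors such as Spi1, on either strand.
C1qc: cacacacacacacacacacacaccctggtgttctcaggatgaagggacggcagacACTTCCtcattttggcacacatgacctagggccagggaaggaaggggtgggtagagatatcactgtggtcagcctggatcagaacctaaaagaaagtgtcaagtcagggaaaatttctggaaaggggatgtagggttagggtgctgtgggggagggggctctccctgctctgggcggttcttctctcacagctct
C1qb: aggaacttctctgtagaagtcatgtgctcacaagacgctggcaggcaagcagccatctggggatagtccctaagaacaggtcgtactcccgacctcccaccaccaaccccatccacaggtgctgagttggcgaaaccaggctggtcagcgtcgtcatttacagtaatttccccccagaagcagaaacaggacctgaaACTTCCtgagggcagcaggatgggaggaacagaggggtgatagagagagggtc

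These 4 motifs were counted in every promoter held for the members, on both strands, and 0 matches of different motifs overlapped. The promoters were 8 of 8 erythroid genes and 14 of 12 leukocyte genes, out of 11 and 18 listed genes. Some leukocyte genes thus count more than once, and some members, such as Slc4a1 and Hbb-bh1, had no promoter. TGATAA was found in 5 of 8 erythroid promoters (Hbb-y, Hba-x, Klf1, Rhag and Hemgn) and in 1 of 14 leukocyte promoters, against 7.94% of 32851 promoters of the same length. GGAAGT was found in 8 of 14 leukocyte promoters, which belong to 7 genes, and in 0 of 8 erythroid promoters, against 19.7% of all. CACCC was found in 6 of 8 and 6 of 14, against 52.0%. TATAAA was found in 4 of 8 and 2 of 14, against 12.4%. A match describes the letters only.

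The erythroid genes were split by brightness. Hbb-y, Hba-x, Slc4a1 and Alas2 lay above the array median on both arrays, and the other 6 lay below it: Hbb-bh1, Epb42, Rhag, Klf1, Gata1 and Hemgn. Of the 18 leukocyte genes 7 lay below: Aif1, Cd14, Ptprc, Adgre1, Spi1, C1qa and Fcgr3. In all, 13 of 28 members lay below the median, beside 44.5% of all genes. At this limit Fcgr3 was just below, at 7.53 on both arrays, and Lyz2 just above, at 7.74 on both. Among the dim members are the master regulators Gata1 and Klf1 of the red cell and Spi1 of myeloid cells, as well as Ptprc, the CD45 antigen carried by nearly all leukocytes.

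**Figure D1:**
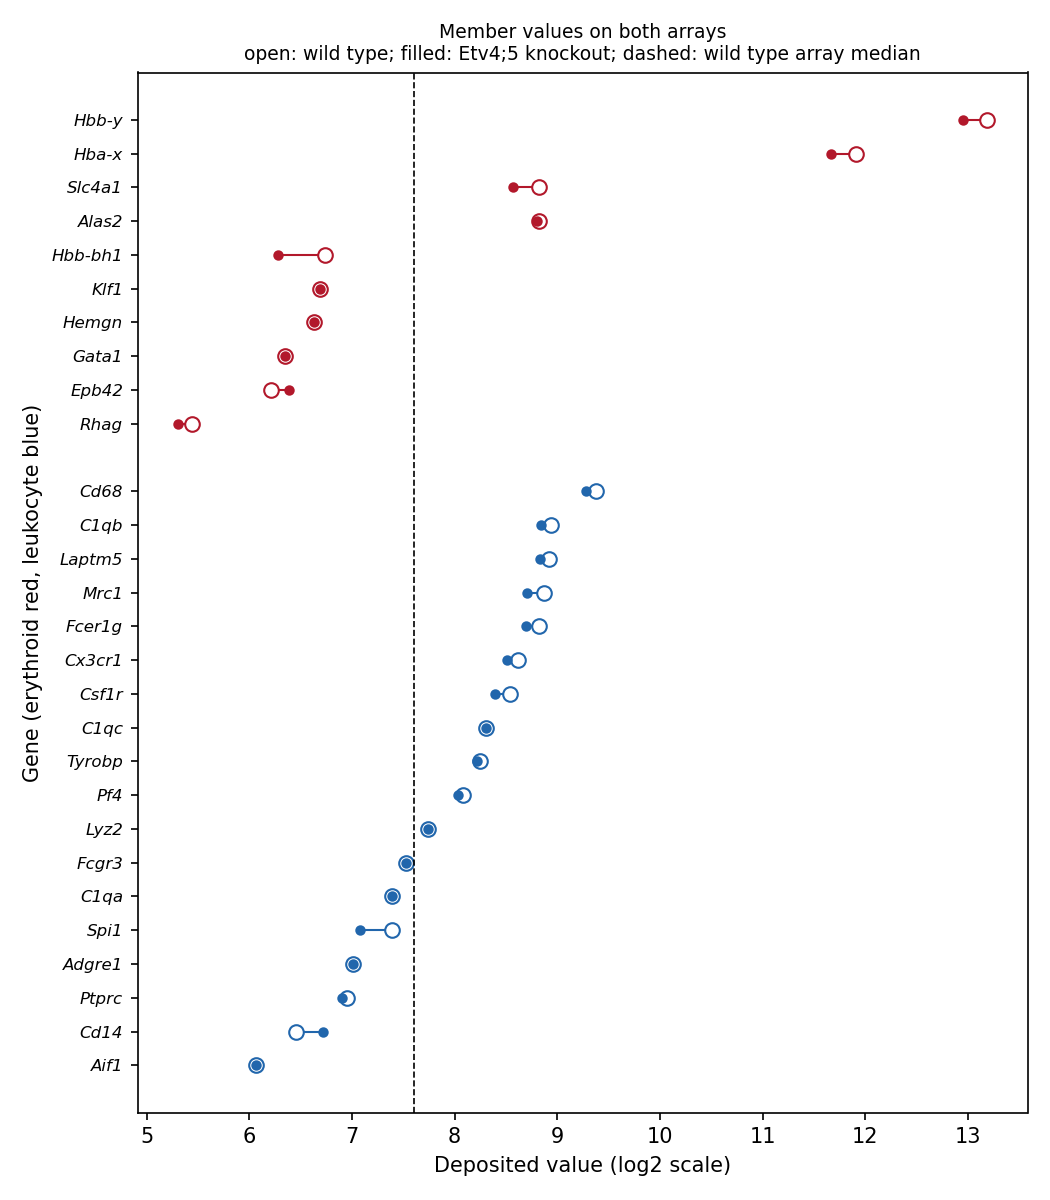
Values of the 28 matched members on the log2 scale (x axis), 1 gene per row, erythroid in red and leukocyte in blue, with open points for the wild type array and filled points for the knockout array. Hbb-y and Hba-x stand far above the wild type median of 7.60 (dashed; the knockout median was 7.58), while 6 erythroid and 7 leukocyte genes stand below it.

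Embryonic globins had lower values in the knockout pool. Hbb-y, the main beta-like globin of primitive red cells, read 13.18 on the wild type array and 12.95 on the knockout array, which is -0.24 (1.18-fold). Hba-x, the embryonic alpha-like zeta globin, was at 11.91 and 11.67, a difference of -0.25 (1.19-fold). These probe sets were brighter than 99.1% and 96.5% of probe sets on the wild type array. Hbb-bh1, another embryonic beta-like globin, was at 6.74 and 6.28. Its difference of -0.46 (1.37-fold) was the largest in size among the members, but it is read between dim values. It lay outside the central 95% of genes below the array median, -0.19 to 0.28. All 3 globins were therefore lower, beside 33.2% of all genes and 47.0% of genes above the array median. Hbb-y and Hba-x, which lie on different chromosomes, differed by almost the same amount. Globin genes resemble each other in sequence, so probes of 1 may also read another.

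Other globins on the fixed lists did not share this direction. Hbb-bh2, a neighbour of Hbb-bh1 in the beta-globin cluster, read 6.33 and 6.43. The theta globins Hbq1a and Hbq1b differed by 0.00 and 0.05. These 3 genes all lay below the array median and are named so that the matched part of the list is whole. At that level 1421 of 8880 genes were lower, 3817 higher and 3642 equal. Probe sets annotated to several globin genes were not used, and 6 of 9 genes on that list were not matched.

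Genes of the red cell membrane and of haem gave a mixed picture. Slc4a1, the band 3 anion exchanger, read 8.83 in the wild type pool and 8.57 in the knockout pool (-0.26, 1.19-fold), close to those of Hbb-y and Hba-x. Alas2, which catalyses the first step of haem synthesis in red cells, was at 8.82 and 8.80, a difference of -0.02. Slc4a1 and Alas2 were thus almost equally bright in wild type and differed in how far the knockout value lay from it. Epb42, a membrane skeleton protein that binds Slc4a1, was at 6.21 and 6.39, higher by 0.17. Rhag, the ammonia channel of the Rh complex, was at 5.44 and 5.31, a difference of -0.13. Epb42 and Rhag were both dim.

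The nuclear regulators of red cells had exactly equal values on the 2 arrays. Klf1 was at 6.68 on both, Gata1, which directs erythroid and megakaryocytic genes, at 6.35, and Hemgn, a nuclear protein of blood progenitors, at 6.63. All 3 were dim. Such equality was frequent here, at 33.5% of all genes, and the sources used here give no reason for it. Alas2 and Gata1 are the X-linked members. Without X and Y genes the erythroid median was -0.19 over 8 genes.

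As a group, 6 of 10 erythroid genes were lower in knockout, 1 was higher (Epb42) and 3 were equal, beside 33.2% lower and 33.4% higher among all genes. The median erythroid difference was -0.07 and that of all genes 0.00. All 4 genes above the array median were lower, with a median of -0.24, but genes at this level were lower more often in general (47.0%). The central 95% of all genes at this level lay between -0.22 and 0.20, so Hbb-y, Hba-x and Slc4a1 lay just outside and Alas2 inside. At least 1.2-fold lower was 1 erythroid gene, Hbb-bh1, beside 1.33% of all genes. Slc4a1, Hba-x and Hbb-y stood just short of that threshold, which is 0.263 in log2, and none of the 4 brighter erythroid genes passed it, beside 1.53% of genes at that level.

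**Figure D2:**
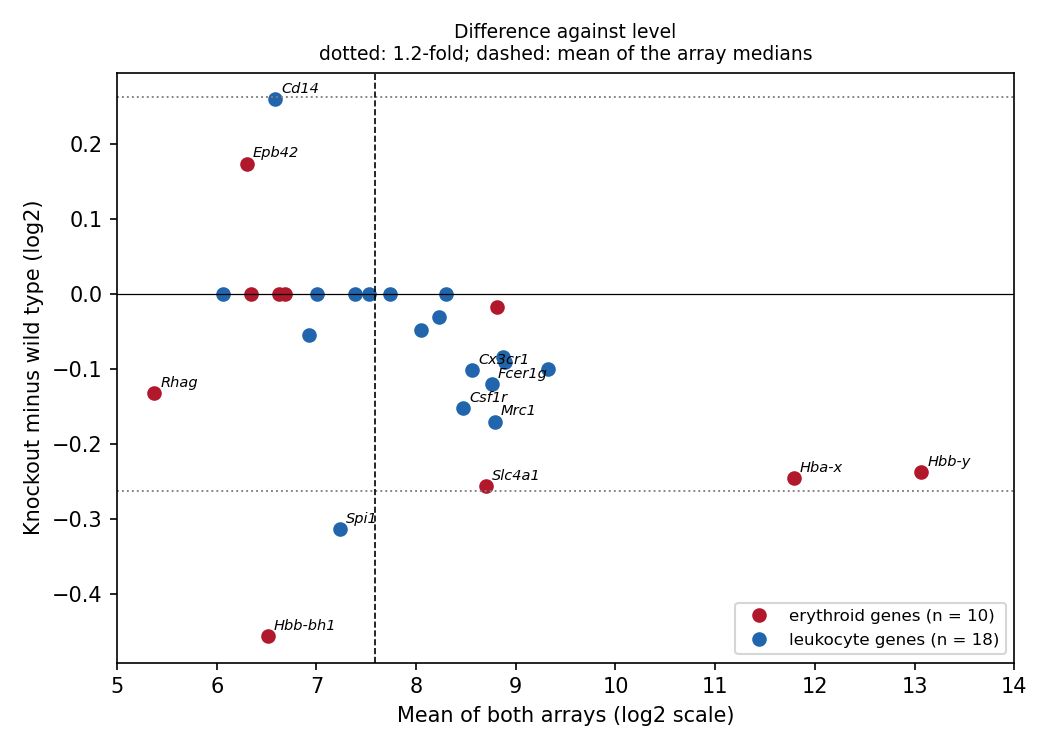
Knockout minus wild type difference (y axis, log2) against the mean of both arrays (x axis, log2) for 10 erythroid (red) and 18 leukocyte (blue) genes. The largest differences, of Hbb-bh1 (-0.46) and Spi1 (-0.31), stand left of the dashed mean of the array medians, and Slc4a1, Hba-x and Hbb-y stand between -0.26 and -0.24 at higher levels.

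Of the other genes that red cells use, those of haem synthesis lay between -0.13 and 0.02, and 1 iron gene passed 1.2-fold. Of all genes 33.2% were lower, and 1.33% at least 1.2-fold lower. Of 7 matched haem synthesis enzymes 4 had a lower and 2 a higher value (median -0.0090). Cpox and Fech, which act late in the pathway, differed by -0.13 and -0.10, and Alad, an early enzyme, by 0.02. Of 6 iron genes 3 were lower and 3 equal. The iron exporter Slc40a1, which macrophages also carry, was at 8.88 and 8.58, a difference of -0.29 (1.23-fold), which is larger in size than those of Hbb-y, Hba-x and Slc4a1. Tfrc, the transferrin receptor through which red cell precursors take up iron, was equal at 9.89. Slc25a37, the mitochondrial iron importer, differed by -0.04.

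Membrane skeleton and regulatory genes also went both ways, beside 33.2% lower and 33.4% higher among all genes. Of 9 matched membrane skeleton genes 3 were lower, 3 higher and 3 equal (median 0.00). Slc2a1, the glucose transporter, differed by -0.21, Dmtn, which bundles actin in the red cell skeleton, by 0.19 and the spectrin gene Sptb by -0.08. Of 9 erythroid regulators 3 were lower, 2 higher and 4 equal, with Lmo2 at -0.14, Bcl11a at -0.06 and Ldb1 at -0.06. Many genes of these lists are also expressed outside the red cell lineage. Their medians lay between -0.02 and 0.00, closer to the median of all genes than the -0.07 of the erythroid members.

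Macrophage receptors were lower or equal with 1 exception, beside 33.2% lower and 33.5% equal among all genes. Mrc1, the mannose receptor, read 8.87 and 8.70, a gap of -0.17 (1.13-fold). Csf1r, the receptor for the growth factor on which macrophages depend, was at 8.54 and 8.39, a difference of -0.15. Cx3cr1, the fractalkine receptor found on early macrophages, was at 8.62 and 8.51, a difference of -0.10. These were the 3 receptors above the array median, and all were lower, beside 47.0% of all genes at that level. Adgre1, a surface antigen that marks mouse macrophages, was equal at 7.01, and the Fc receptor gene Fcgr3 was equal at 7.53. Cd14, the co-receptor for bacterial lipopolysaccharide, was at 6.46 and 6.72, higher by 0.26 between dim values. That lies inside the central 95% of genes below the array median, which spanned -0.19 to 0.28.

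The complement and lysosomal genes of macrophages differed little. C1qb, which with C1qa and C1qc forms the subunits of complement C1q, read 8.93 and 8.84, a gap of -0.09. C1qc was equal at 8.30 and C1qa at 7.39, so 1 of the 3 subunits was lower and 2 were equal. Among all genes 33.2% were lower and 33.5% equal. The C1qb difference lay inside the central 95% of genes at its level, -0.22 to 0.20. Cd68, a lysosomal membrane glycoprotein and the brightest leukocyte member, was at 9.38 and 9.28, a difference of -0.10. Lyz2, the myeloid lysozyme, was equal at 7.74, and Aif1, the actin-binding protein known as Iba1, was equal at 6.06.

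The 6 leukocyte genes that are not particular to macrophages were all lower, beside 33.2% of all genes and, for the 4 above the array median, 47.0% of genes at that level. Spi1, the transcription factor PU.1, was at 7.39 and 7.08, a difference of -0.31 (1.24-fold), and 0.772% of all genes had a lower one. The values of Spi1 were dim, and its difference lay outside the central 95% of genes below the array median, -0.19 to 0.28. GGAAGT, marked in the C1qb and C1qc promoters, is a core shared by ETS factors, which include Spi1, Etv4 and Etv5. A link between these factors and the C1q values was not tested. The adaptors Fcer1g and Tyrobp, which couple surface receptors to kinases, differed by -0.12 (from 8.82 to 8.70) and -0.03 (from 8.24 to 8.21). Laptm5, a lysosomal protein of blood cells, was at 8.92 and 8.83, and Ptprc at 6.96 and 6.90. Pf4, the platelet factor 4 chemokine that megakaryocytes and early macrophages make, was at 8.08 and 8.03.

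Over all 18 leukocyte genes 11 were lower, 1 was higher (Cd14) and 6 were equal, with a median of -0.05, beside 33.2% lower and 33.5% equal among all genes. Spi1 alone was at least 1.2-fold lower, beside 1.33% of all genes. No member was at least 1.2-fold higher, beside 2.21% of all genes. Of the 11 leukocyte genes above the array median 9 were lower and 2 were equal (Lyz2 and C1qc), beside 47.0% lower among all genes at that level. Their median was -0.09 and their range -0.17 to 0.00, inside the central 95% of genes at that level. Of the 7 below it 2 were lower, 1 higher and 4 equal. Of all 8880 genes at that level 1421 were lower, 3817 higher and 3642 equal.

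Erythroid and macrophage genes were then set side by side. Of the 12 macrophage genes 5 were lower, 1 higher and 6 equal, beside 33.2% lower and 33.5% equal among all genes. Their median was 0.00, against -0.07 for the erythroid genes. The means were -0.12 for the erythroid and -0.03 for the macrophage genes. Among genes above the array median the erythroid median was -0.24 over 4 genes and the macrophage median -0.10 over 7 genes. No macrophage gene differed by as much as Hbb-y, Hba-x or Slc4a1 in the lower direction, and the lowest, Mrc1, stood at -0.17. This depends on which genes are counted as macrophage genes. Spi1, a leukocyte member outside them, stood at -0.31, and all 6 such members were lower. Over all 18 leukocyte genes the median was -0.05, close to the -0.07 of the erythroid genes. With 1 array per group the gap between the lists has no error, and it was not tested. For 777 genes read by 2 probe sets the differences of both probe sets were apart by 0.04 in the median and by 0.195 at the 90th percentile. The latter exceeds the size of every lower macrophage difference and comes near those of Hbb-y, Hba-x and Slc4a1.

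**Figure D3:**
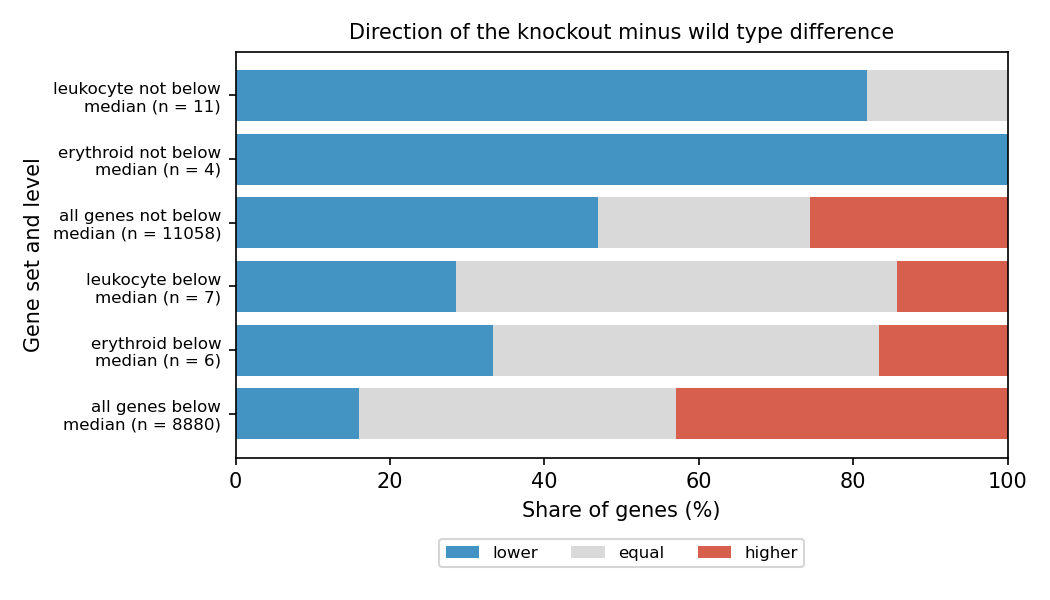
Share of genes (x axis, %) with a lower (blue), equal (grey) or higher (red) value in knockout, for all genes, erythroid and leukocyte genes (y axis), split by the array median. Above the median 4 of 4 erythroid and 9 of 11 leukocyte genes were lower beside 47.0% of all genes at that level. Below it 3 of 6 and 4 of 7 were equal beside 3642 of 8880 genes.

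A longer list of macrophage genes, which held none of the members, did not lean toward lower values. Of its 26 matched genes 6 were lower, 9 higher and 11 equal, with a median of 0.00. Among all genes 33.2% were lower, 33.4% higher and 33.5% equal. Below the array median lay 14 of the 26, beside 44.5% of all genes. At that level 1421 of 8880 genes were lower and 3817 higher, so the level of a list also bears on its counts. Lyve1, a hyaluronan receptor of lymphatic endothelium and some tissue macrophages, was at 10.56 and 10.42, a difference of -0.14. F13a1, the coagulation factor XIII chain made by macrophages and megakaryocytes, differed by -0.11, and the lipoprotein gene Apoe, which many cells express, was higher by 0.11. Megakaryocyte and platelet genes, of which 1 of 6 lay below the array median, were lower in 1 of 6 and higher in 3. Beside this stand 33.2% lower and 33.4% higher among all genes. The median of this list was 0.03. Itga2b, the platelet integrin CD41, was higher by 0.14, Treml1 by 0.12, and Ppbp, a platelet chemokine next to Pf4, differed by -0.08.

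Genes of the lung's other cell types differed between the pools as well. None of them lay below the array median, and at that level 47.0% of all genes were lower. The mean level of 6 endothelial genes was 10.69 in wild type and 10.66 in knockout, with 4 lower and 2 equal, Pecam1 at -0.08 and Tek at -0.08. That of 6 mesenchyme genes was 11.32 and 11.28, with 5 lower and 1 higher, Foxf1 at -0.40 and Fgf10 at 0.40. That of 6 epithelial genes was 10.28 and 10.12, with 4 higher and 2 lower, Cdh1 at 0.19, Sox9 at -0.32 and Sftpc at -1.12. The erythroid mean level was 8.08 and 7.96 and the leukocyte mean level 7.96 and 7.90. Endothelial genes, the lining of the vessels that hold the blood, thus differed by less than Hbb-y, Hba-x and Slc4a1. The part of these cell types in the erythroid and leukocyte differences was not tested. With 1 pool per group, a difference in the sex makeup of the pools cannot be told apart from the genotype.

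**Figure D4:**
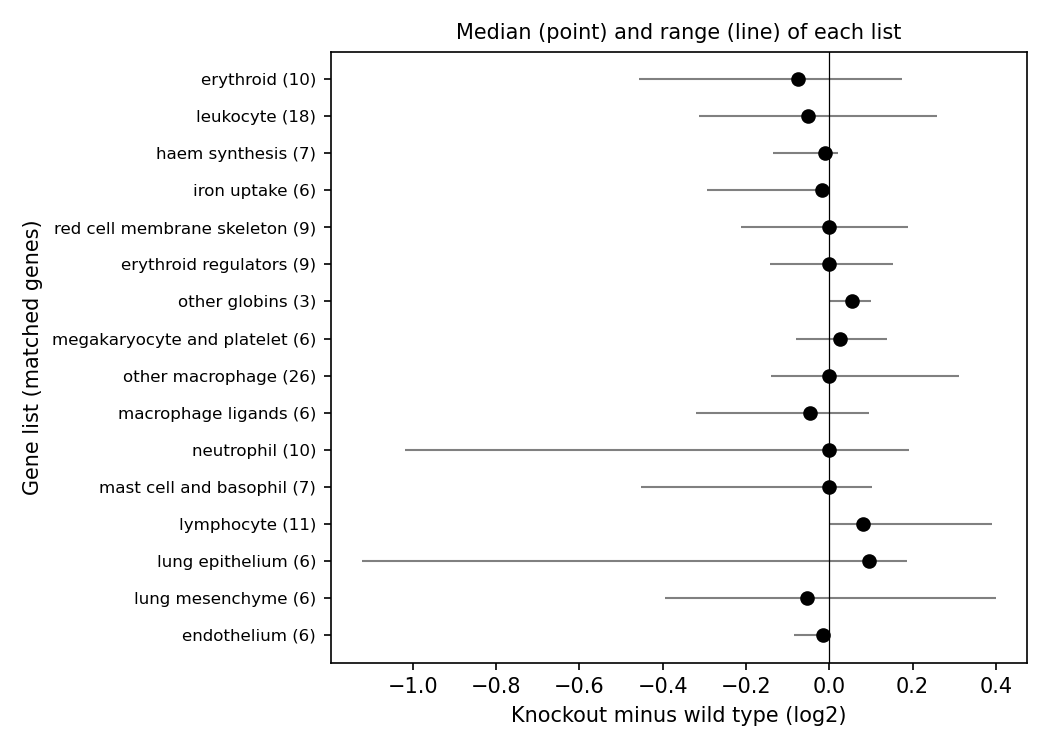
Median (point) and range (line) of the knockout minus wild type difference (x axis, log2) for each gene list (y axis, with the number of matched genes). The erythroid and leukocyte medians stand at -0.07 and -0.05, and the longer macrophage list at 0.00.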

How the data were processed

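Total RNA of E13.5 mouse lungs was labelled with biotin for Affymetrix arrays, per the labels. Per the design text, 3 samples per group were pooled, and each pool gave 1 array. The authors deposited a value for each probe set and array, taken as log2 from its range (2.69 to 14.45). Summary method and normalization are not given in the sources used here. Values were used as deposited. Of 35557 probe sets 21789 had 1 symbol in the platform annotation, 1621 several and 12147 none. A gene took its probe set with the highest mean of both arrays. A RefSeq table (GRCm38.p6) matched 19919 of 19938 symbols and gave chromosomes. With 1 array per group no p-value was computed; lists are described by counts and medians beside all genes. The number of arrays limits precision. Counting was tested on simulated data. Text names every member and, per other list, at most 3 genes above the array median with the largest difference. Members and lists were chosen with earlier results of these data known. Promoters and motifs were chosen after the values were seen. Alternatives were 3 scalings (equal medians, quantile, loess with span 0.3), the probe set mean, a floor at the 25th percentile, a level filter, removal of X and Y genes, 1.1-fold and 1.5-fold thresholds and list means. Python 3.11.15, numpy 2.4.6, pandas 2.3.3, statsmodels 0.14.6 and matplotlib 3.10.9 were used.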

Additional observations from a re-analysis of the deposited data

How the results depend on the processing

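No paired analysis was possible because each group has 1 array, and for the same reason none was left out. The leukocyte median lay between -0.09 and -0.03 over 8 alternatives and was below 0 in each. The erythroid median was also below 0 in each of its 8. It was -0.0088 with the floor, which levels dim values, -0.24 with only genes above the array median (4 genes) and -0.19 without X and Y genes (8 genes). The erythroid minus macrophage gap was -0.07 as reported, and -0.0088, -0.14 and -0.19 under the same 3 settings. The macrophage median, 0.00 as reported, was -0.10 with only genes above the array median, and it was 0.02 with equal medians, which moved the median of all genes by as much. With the level filter 0 erythroid, 0 leukocyte and 169 of all genes were at least 1.2-fold lower. At 1.1-fold these counts were 4, 3 and 1188 and at 1.5-fold 0, 0 and 25, as another threshold must change them. Of 84 values of single members under quantile, loess and the floor, 83 moved by less than 0.04, the median gap between probe sets of a gene; Rhag moved to 0.02 with the floor. The probe set mean could not move members, which have 1 probe set each, and equal medians moved all of them alike. The 9 equal members were no longer exactly equal under any of the 3 scalings. The count of 13 members below the array median was fixed by construction under equal medians, quantile and the probe set mean, and was also 13 under loess. Dim signal limits Hbb-bh1, Spi1 and Cd14, whose differences lie between values below the median.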

Other observations

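Neutrophil, mast cell and lymphocyte genes were mostly dim, lying below the array median, beside 44.5% of all genes. All 10 neutrophil genes lay below the array median, and 5 were lower, 3 higher and 2 equal, with a median of -0.00086. At that level 1421 of 8880 genes were lower, 3817 higher and 3642 equal. At least 1.2-fold lower were Ngp, a granule protein, from 7.54 to 6.52, Lcn2, an iron-trapping lipocalin, from 7.24 to 6.28, and S100a8, a calcium-binding protein, from 5.68 to 5.31. These 3 were named after their values were seen, and 97 of 8880 genes below the array median were at least 1.2-fold lower. Of 7 mast cell and basophil genes 6 lay below the median. The exception was Kit, the stem cell factor receptor, at 9.91 and 9.81, which other cells of the lung can also express. Cpa3, the mast cell carboxypeptidase, named after its values were seen, was at 7.08 and 6.62. Of 11 lymphocyte genes 10 lay below the median, 6 were higher and 5 equal, beside 33.4% higher and 33.5% equal among all genes. Among genes below the array median, 3817 of 8880 were higher and 3642 equal, so the level of this list bears on its counts. Cd79b, a chain of the B cell receptor complex, was at 7.69 and 7.82, and Cd8a, also named after its values were seen, differed by 0.39.

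Of 6 genes for ligands of macrophage receptors 3 lay above the array median. These 3 were lower, beside 47.0% of all genes at that level. Cxcl12, a chemokine that attracts blood progenitors, was at 9.45 and 9.13, a difference of -0.32. Ccl2, a monocyte attractant, differed by -0.11 and Csf1, a ligand of Csf1r, by -0.09. Ccl2 and Csf1 lay inside the central 95% of genes at that level, -0.22 to 0.20, and Cxcl12 lay outside. The other 3 were dim: Cx3cl1, the ligand of Cx3cr1, was at 7.48 and 7.55, Il34, a further ligand of Csf1r, was equal at 6.81, and Csf2 was at 5.22 and 5.32. The last 3 were added so that the list is given whole.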
